A study of Mus musculus with 20 samples.

Results

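The 9 genes described here encode the sterol sensing and processing machinery of the sterol regulatory element-binding proteins (SREBPs), together with a sterol transfer protein and a retinol dehydrogenase. They were chosen by name, as genes of SREBP processing, feedback, sterol uptake and sterol transfer, with earlier results of these data known. All 9 were found among the 11075 genes of the count table and passed the filter on low counts that left 9726 genes for testing. The transcription factors are Srebf1 and Srebf2, the escort and retention proteins are Scap, Insig1 and Insig2, the proteases are Mbtps1 and Mbtps2, and the others are Stard4 and Rdh11. All libraries were made from NIH3T3 cells, an immortalized line of mouse embryonic fibroblasts, grown in bicarbonate-buffered medium with serum. Control cells were kept at 5% CO2 and collected at 0 h, another set was moved to 1% CO2 for 2 or 4 h, and the last set stayed at 5% CO2 with 18 mM NaOH added to the medium for 2 or 4 h. Each of these 5 groups had 4 libraries, 20 in all. Lowering CO2 makes the medium more alkaline, and NaOH served in the study as a control for the change in pH. No cells left at 5% CO2 for 2 or 4 h without NaOH were analysed here. In any comparison with 0 h, elapsed time and handling therefore cannot be told apart from the treatment, and both treatments were compared with the same 4 control libraries.

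SREBPs are made as precursors that sit in the membrane of the endoplasmic reticulum (ER), bound to the escort protein SCAP. When sterols are plentiful, SCAP is held in the ER by an INSIG protein. When they are scarce, SCAP carries the precursor to the Golgi in COPII vesicles, site-1 protease and site-2 protease (encoded by Mbtps1 and Mbtps2) release its N-terminal part, and this part enters the nucleus and switches on genes of sterol and fatty acid synthesis, with Srebf2 and Insig1 themselves among the known targets. Cleavage and nuclear entry are events of the protein, which mRNA counts do not measure.

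SREBPs bind sterol regulatory elements and E-boxes, usually beside sites for NF-Y and for factors that bind GC boxes. RefSeq promoter windows of mouse build GRCm38.p6, from 250 bases before to 50 bases after a start site, were searched on both strands for the sterol regulatory element core TCACNCCA, for the classic longer element, which is that core with C at the free base, an A before it and a C after it, for the E-box CACGTG, for the NF-Y box CCAAT and for the GC box GGGCGG. The core was added after the windows had been read, and the 4 windows below were chosen with their matches known. They are those of Srebf2 (chr15:82147019-82147318, plus strand), of one of the 3 Srebf1 start sites (chr11:60210422-60210721, minus strand), of Insig1 (chr5:28071162-28071461, plus strand) and of one of the 2 Rdh11 start sites (chr12:79190912-79191211, minus strand). Those of Srebf2, Insig1 and Rdh11 are shown as examples of genes that rose. Their windows shown also held a core or an E-box, and an NF-Y box, at the distances given below. The window of Srebf1, which also rose at 4 h, is shown for comparison with its paralog. Scap rose at 4 h of 1% CO2 and is not shown, and Stard4 was not searched. Capitals mark the core, the E-boxes and the NF-Y boxes, the last as ATTGG where they lie on the other strand, and each sequence is written 5′ to 3′ on the strand of its gene.
Srebf2: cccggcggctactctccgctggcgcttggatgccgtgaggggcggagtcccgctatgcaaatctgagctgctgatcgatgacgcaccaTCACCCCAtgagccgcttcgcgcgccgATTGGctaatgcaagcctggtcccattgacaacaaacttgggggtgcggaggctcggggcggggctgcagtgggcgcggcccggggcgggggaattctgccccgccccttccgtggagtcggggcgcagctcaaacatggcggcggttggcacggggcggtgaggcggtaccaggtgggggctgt
Srebf1: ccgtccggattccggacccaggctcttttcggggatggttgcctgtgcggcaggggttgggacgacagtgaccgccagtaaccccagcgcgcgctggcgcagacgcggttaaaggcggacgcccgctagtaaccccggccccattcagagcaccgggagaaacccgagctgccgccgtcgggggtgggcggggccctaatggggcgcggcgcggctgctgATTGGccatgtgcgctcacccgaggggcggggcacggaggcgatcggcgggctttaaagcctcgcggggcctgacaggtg
Insig1: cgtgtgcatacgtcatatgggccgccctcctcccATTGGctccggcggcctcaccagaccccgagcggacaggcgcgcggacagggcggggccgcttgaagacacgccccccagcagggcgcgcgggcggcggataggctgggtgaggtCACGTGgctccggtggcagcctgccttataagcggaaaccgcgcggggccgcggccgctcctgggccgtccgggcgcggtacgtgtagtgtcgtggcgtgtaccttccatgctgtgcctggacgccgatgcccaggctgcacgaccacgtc
Rdh11: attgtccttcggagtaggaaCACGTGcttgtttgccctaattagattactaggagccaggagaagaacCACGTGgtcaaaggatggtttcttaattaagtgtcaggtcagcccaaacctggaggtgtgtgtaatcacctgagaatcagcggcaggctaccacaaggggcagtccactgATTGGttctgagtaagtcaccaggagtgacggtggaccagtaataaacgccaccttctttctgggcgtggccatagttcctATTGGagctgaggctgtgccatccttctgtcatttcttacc

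In the Srebf2 window the core match began 162 bases before the start site and an NF-Y box 135 bases before it. The Insig1 window had an E-box 101 bases and an NF-Y box 216 bases before the start site, and no match to the core. The Rdh11 window had 2 E-boxes, 230 and 182 bases before the start site, and an NF-Y box 72 bases before it, with another 9 bases after it. The Srebf1 window had an NF-Y box 30 bases before the start site. No match to the core or to CACGTG was found in any of the 3 Srebf1 windows. After its NF-Y box the window shown reads catgtg and tcacccga, which come close to these letters but were not counted as matches. Both Scap windows, which overlap, held the same E-box, and of the 3 Insig2 windows 1 held 3 NF-Y boxes while none held a core or an E-box. No window of Mbtps1, of Mbtps2 or of the other Rdh11 start site held a core, an E-box or an NF-Y box. The longer element was found in none of the 14 windows of these 8 genes. Of all 32851 mouse windows, 0.0913% held the longer element, 4.36% the core, 7.15% an E-box, 37.4% an NF-Y box and 35.7% a GC box. These are matches of letters, and binding was not measured. Other forms of these elements were not searched for, so a window without a match may still hold one.

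Library totals ranged from 1325293 to 5640523 (median 3343835.5), the smallest being that of the second NaOH library of 2 h. Reads were collapsed by their unique molecular identifiers (UMIs), which removes PCR duplicates, and the values given are normalized counts, scaled by TMM factors to the mean library. All 10 fibroblast markers examined were in the table, summing to 119900 to 161500 normalized counts per library. Of 5 epithelial markers the 2 in the table, Cdh1 and Krt19, summed to 0 to 12.25, of 5 immune markers the 2 in the table, Cd68 and Lyz2, summed to 97.44 to 202, and none of the 4 endothelial or 4 fat cell markers was in the table. In bulk RNA, fewer cells and less RNA per cell cannot be told apart. Replicates are called biological in the study, but whether they were separate cultures is not given, and each p-value reflects only how far these samples lay apart.

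**Figure D1:**
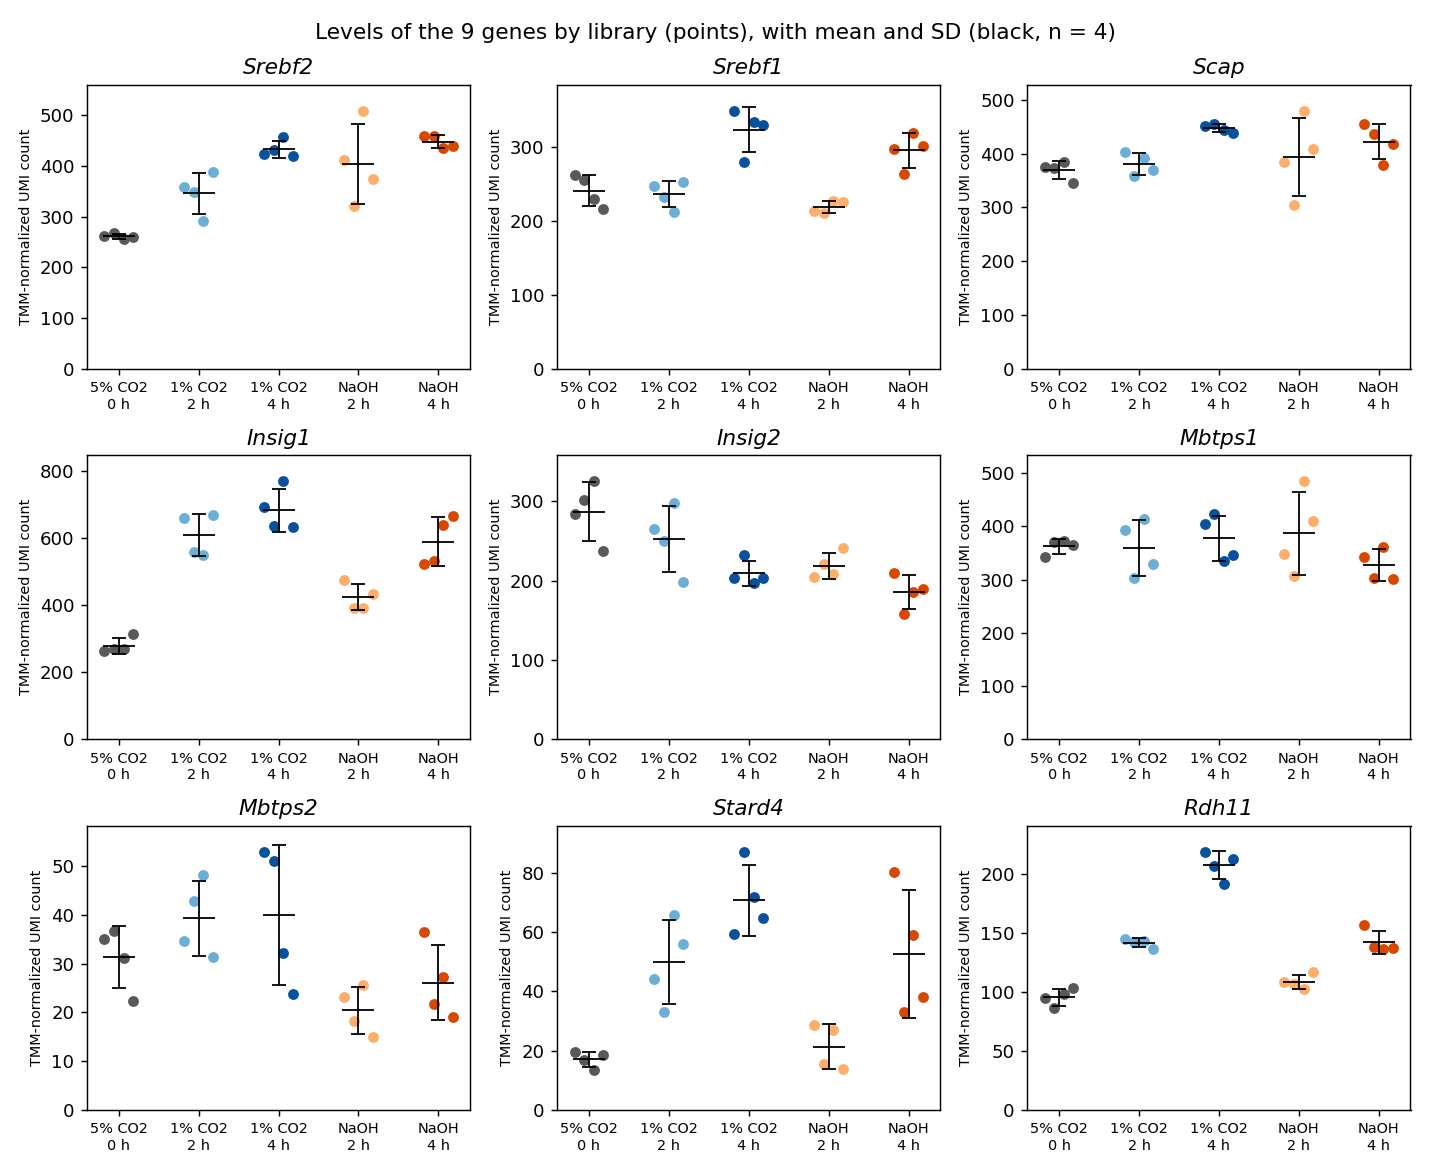
Normalized UMI counts (vertical axes, from 0) of the 9 genes in each of the 20 libraries, by group (horizontal axes). Points are libraries, and black bars the mean and SD of 4. Insig1, Srebf2, Stard4 and Rdh11 lay above the control libraries in both 1% CO2 groups, and Mbtps1 overlapped the controls in every group.

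Of the transcription factors, Srebf2, which encodes the SREBP that mainly drives cholesterol synthesis, rose in all 4 treated groups. Its gene lies on chromosome 15 (82147269 to 82205379). Control libraries had 261, 269, 255 and 259 normalized counts. Cells exposed to 1% CO2 had 359, 348, 291 and 388 at 2 h, and 424, 431, 457 and 420.3 at 4 h. NaOH-treated cells had 412, 322, 509 and 375 at 2 h, and 458, 459, 436 and 439 at 4 h. Every treated library lay above every control library, and the controls lay closest together, while the NaOH libraries of 2 h spanned the widest range of the 5 groups. Against 0 h, the log2 fold change (log2FC) of Srebf2 was 0.41 at 2 h and 0.73 at 4 h of 1% CO2 (SE 0.0992 and 0.0993, edgeR's quasi-likelihood test with Benjamini-Hochberg adjustment over the 9726 genes, adjusted p = 0.0018 and 2.5e-07). With NaOH it was 0.65 at 2 h and 0.78 at 4 h (edgeR, adjusted p = 2e-06 and 2.5e-08). From 2 to 4 h Srebf2 rose further at 1% CO2, by 0.32 (edgeR, adjusted p = 0.022), a call that was lost without the third 1% CO2 library of 2 h (0.25, adjusted p = 0.075) or the third 1% CO2 library of 4 h (0.30, adjusted p = 0.065). The corresponding value for NaOH was 0.13, which did not pass the test (edgeR, adjusted p = 0.32) unless the third NaOH library of 2 h was left out (0.26, adjusted p = 0.041).

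Srebf1, whose product mainly drives fatty acid synthesis, changed later and less. Its gene lies on chromosome 11 (60199084 to 60224186), and counts at the 3′ end do not separate its isoforms, which share that end. Control libraries had 262, 255, 229 and 217 normalized counts. At 1% CO2 the libraries had 247, 232, 212 and 252 at 2 h, and 349, 280.2, 334 and 330.2 at 4 h. With NaOH they had 214, 210.4, 227 and 226 at 2 h, and 297, 263, 319 and 301 at 4 h. Both groups of 2 h overlapped the controls, and every library of 4 h lay above every control, with the second NaOH library only just so. The log2FC against 0 h was -0.03 and -0.14 at 2 h of 1% CO2 and of NaOH, neither past the test (edgeR, adjusted p = 0.82 and 0.26). At 4 h it was 0.42 at 1% CO2 and 0.29 with NaOH (edgeR, adjusted p = 0.00038 and 0.0074). Between 2 and 4 h Srebf1 rose by 0.46 at 1% CO2 and by 0.43 with NaOH (edgeR, adjusted p = 0.00076 and 0.00073). When libraries were scaled by their totals alone, the rise with NaOH at 4 h was 0.10 and no longer passed the test (edgeR, adjusted p = 0.36), while the median over all genes of that comparison moved to -0.19. With the same scaling the value at 2 h of NaOH was -0.32 and passed (edgeR, adjusted p = 0.0065), where the median moved to -0.21.

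The Srebf2 to Srebf1 ratio was taken within each library, where it does not depend on scaling. In the controls the ratio of counts ranged from 0.998 to 1.20 (median 1.08). At 1% CO2 it ranged from 1.37 to 1.54 after 2 h and from 1.21 to 1.54 after 4 h, and with NaOH from 1.53 to 2.24 after 2 h and from 1.36 to 1.74 after 4 h. All 16 treated libraries had a higher ratio than any control library. The log2 ratio differed from 0 h by 0.43 and 0.30 at 2 and 4 h of 1% CO2 and by 0.74 and 0.48 with NaOH, each at the smallest p that 4 against 4 libraries can give (two-sided exact permutation test, p = 0.0286). Adjusted over the 16 ratio tests of both paralog pairs, each p was 0.0508. None of the 16 passed the threshold of 0.05 after adjustment. Between 1% CO2 and NaOH the log2 ratio differed by -0.32 at 2 h and -0.18 at 4 h with overlapping libraries (exact permutation test, p = 0.0571 and 0.143, adjusted p = 0.0914 and 0.191).

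**Figure D2:**
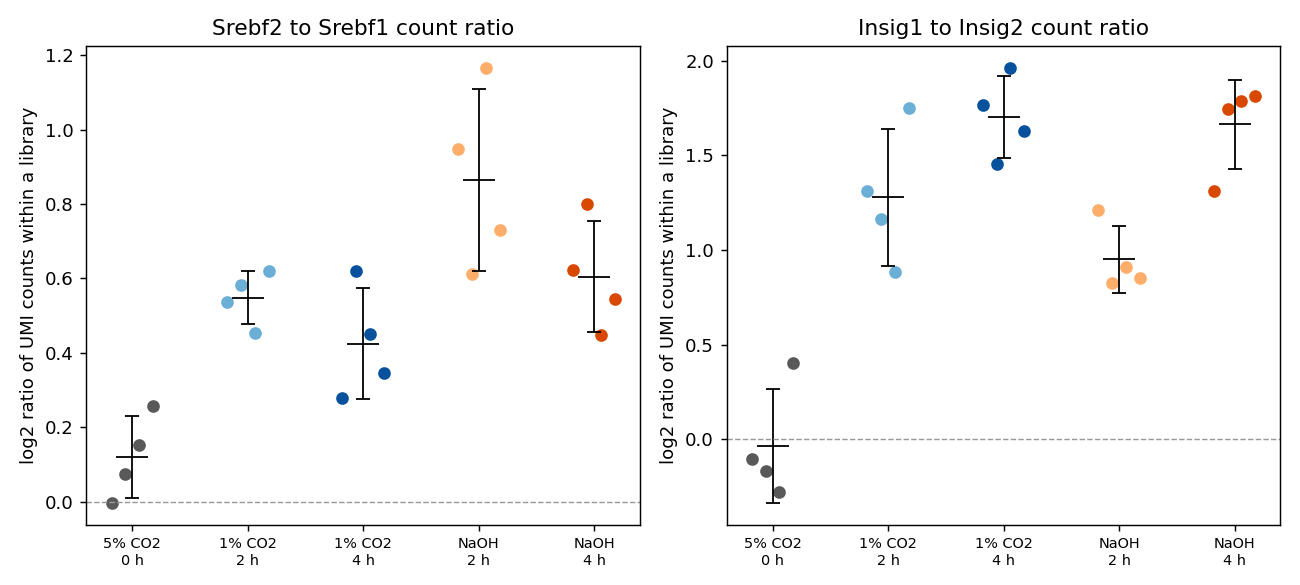
Log2 ratio of UMI counts of Srebf2 to Srebf1 (left) and of Insig1 to Insig2 (right) in each library (points), with the mean and SD of 4 libraries per group (black). In both panels the 16 treated libraries lie above the 4 control libraries, and the dashed line marks equal counts.

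Insig1, an INSIG protein that retains SCAP in the ER and is itself switched on by SREBPs, had the largest rise at 1% CO2 of the genes other than Stard4. It lies on chromosome 5 (28071412 to 28078662). Control libraries had 264, 269, 268 and 314 normalized counts. Cells exposed to 1% CO2 had 659, 559.6, 549 and 669 at 2 h, and 692, 637, 769 and 632 at 4 h. NaOH-treated cells had 474, 392, 392 and 434 at 2 h, and 521, 530.2, 639.7 and 665 at 4 h. No treated library overlapped the controls, and at 2 h every 1% CO2 library lay above every NaOH library, while at 4 h the treatments overlapped. The log2FC against 0 h was 1.13 and 1.29 at 2 and 4 h of 1% CO2, a 2.18-fold and 2.45-fold rise (edgeR, adjusted p = 1.4e-11 and 3.1e-13). With NaOH it was 0.61 at 2 h and 1.08 at 4 h, a 1.53-fold and 2.11-fold rise (edgeR, adjusted p = 5.1e-06 and 1.2e-11). Most of the change at 1% CO2 was present at 2 h, and the step from 2 to 4 h was 0.17 (edgeR, adjusted p = 0.24), whereas with NaOH Insig1 rose by a further 0.47 (edgeR, adjusted p = 0.00028). The difference between these steps was -0.30 with an SE of 0.136 and did not pass the test (edgeR interaction, adjusted p = 0.13).

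Insig2, the paralog that also retains SCAP and is not known as an SREBP target, moved the other way. It lies on chromosome 1 (121304353 to 121332662). Control libraries had 284, 302, 325 and 238 normalized counts. At 1% CO2 the libraries had 265, 249, 298 and 199 at 2 h, and 203, 233, 197 and 204 at 4 h. With NaOH they had 204, 221, 208 and 241 at 2 h, and 210.2, 158, 185 and 189 at 4 h. The fourth control library was the lowest of its group, and the NaOH libraries of 2 h overlapped the controls through it alone, while both groups of 4 h lay wholly below the controls. Insig2 fell by 0.45 on the log2 scale at 4 h of 1% CO2 (edgeR, adjusted p = 0.0014), and by 0.39 and 0.62 at 2 and 4 h of NaOH (edgeR, adjusted p = 0.0052 and 1.5e-05). At 2 h of 1% CO2 its log2FC of -0.18 did not pass the test (edgeR, adjusted p = 0.24). The values of 1% CO2 and NaOH differed by 0.22 at 2 h and 0.17 at 4 h, and neither difference passed (edgeR, adjusted p = 0.15 and 0.28). Without the fourth 1% CO2 library of 2 h, the lowest of its group, the former was 0.31 and passed (edgeR, adjusted p = 0.038), as it did with libraries scaled by their totals alone (0.34, adjusted p = 0.027).

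Within a library, the ratio of Insig1 to Insig2 counts was 0.826 to 1.32 in the controls. At 1% CO2 it was 1.84 to 3.36 after 2 h and 2.74 to 3.90 after 4 h, and with NaOH 1.77 to 2.32 after 2 h and 2.48 to 3.51 after 4 h. The log2 ratio exceeded that of 0 h by 1.31 and 1.74 at 1% CO2 and by 0.99 and 1.70 with NaOH, with no overlap in any of these comparisons (two-sided exact permutation test, p = 0.0286 and adjusted p = 0.0508 for each). It was also 0.71 higher at 4 h than at 2 h of NaOH, without overlap (exact permutation test, p = 0.0286, adjusted p = 0.0508). After adjustment none of these ratio tests passed the threshold of 0.05. The step at 1% CO2 was 0.43, and those libraries overlapped (exact permutation test, p = 0.0857, adjusted p = 0.125). At 4 h the treatments differed by 0.04, far less than the SD of 0.216 and 0.237 within the groups (exact permutation test, p = 0.83).

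Scap, the sterol sensor that escorts SREBPs, changed little. Control libraries had 376, 373, 384 and 346 normalized counts. At 1% CO2 the libraries had 403, 359, 391 and 370.3 after 2 h, and 451, 455, 445 and 438 after 4 h. With NaOH they had 384, 304, 479.9 and 409 after 2 h, and 455, 437, 379.6 and 418 after 4 h. The 1% CO2 libraries of 4 h were the one group that lay wholly above the controls. The rise there was 0.28 (edgeR, SE 0.0929, adjusted p = 0.017), and it was 0.16 and not past the test with libraries scaled by their totals alone (edgeR, adjusted p = 0.16), where the median over all genes moved to -0.12. In the other 3 comparisons with 0 h Scap did not pass, with 0.19 at 4 h of NaOH as the largest value (edgeR, adjusted p = 0.074), which passed without the third NaOH library of 4 h (0.24, adjusted p = 0.037), and also without the third 1% CO2 library (0.21, 0.047) or the second NaOH library of 2 h (0.19, 0.045), which enter that fit only through the shared estimates. In the NaOH group of 2 h, the third library was the highest and the second the lowest for Scap, Srebf2 and Mbtps1 alike.

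The proteases showed no rise that passed against 0 h. Mbtps1, site-1 protease, had group means of 327 to 387 normalized counts, and its log2FC against 0 h was between -0.15 and 0.11 with adjusted p of 0.27 or more in edgeR. It passed in none of the 8 comparisons, at an adjusted p of 0.083 or more, and its value of -0.26 from 2 to 4 h of NaOH passed without the second NaOH library of 2 h (-0.33, edgeR, adjusted p = 0.024). With libraries scaled by their totals alone, Mbtps1 passed as lower at 4 h of NaOH (-0.34, adjusted p = 0.011) and as higher at 1% CO2 than with NaOH at 4 h (0.28, adjusted p = 0.049) in edgeR. Mbtps2, site-2 protease, encoded on the X chromosome, was a low gene. Control libraries had 35.1, 36.7, 31.2 and 22.4 normalized counts. At 1% CO2 they had 34.7, 42.9, 48.2 and 31.4 after 2 h, then 53.0, 51.2, 32.2 and 23.7 after 4 h. With NaOH they had 23.2, 18.2, 25.6 and 14.9 after 2 h, then 36.4, 21.8, 27.2 and 19.0 after 4 h. These rest on few molecules, from 7 UMIs in the second NaOH library of 2 h to 63 in the first control library. At 2 h every 1% CO2 library lay above every NaOH library, a difference of 0.93 (edgeR, SE 0.255, adjusted p = 0.0046). At 4 h the groups overlapped and the difference was 0.64 (edgeR, SE 0.236, adjusted p = 0.032), and that call was lost without the first (0.46, adjusted p = 0.18) or second 1% CO2 library (0.52, adjusted p = 0.12) or without the second NaOH library (0.57, 0.083), the third (0.65, 0.051) or the fourth (0.52, 0.11). Against 0 h Mbtps2 passed in neither direction, and the nearest was -0.60 at 2 h of NaOH (edgeR, adjusted p = 0.056), which passed with a replicate block (-0.58, adjusted p = 0.037) and without the fourth control library (-0.75, adjusted p = 0.021), the third NaOH library of 2 h (-0.72, 0.047) or 1 of 3 libraries of 4 h or of 1% CO2 (-0.60 each, 0.045 to 0.049).

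Stard4, a soluble protein that carries sterols between membranes and is a known SREBP2 target, had the largest fold changes of the 9 genes against 0 h, except at 2 h of NaOH. It lies on chromosome 18. Control libraries had 19.5, 16.7, 13.4 and 18.4 normalized counts. At 1% CO2 they had 44.2, 33.2, 65.8 and 56.1 at 2 h, and 59.4, 87.2, 71.8 and 64.8 at 4 h. With NaOH they had 28.8, 15.6, 26.8 and 13.8 at 2 h, and 80.5, 33.2, 59.2 and 38.0 at 4 h. The NaOH libraries of 2 h overlapped the controls, and the other 3 treated groups lay wholly above them. Stard4 was 2.82-fold and 4.04-fold higher at 2 and 4 h of 1% CO2 than at 0 h (log2FC 1.5 and 2.01, edgeR, adjusted p = 7.1e-05 and 3.3e-07). With NaOH it was 3.09-fold higher at 4 h (log2FC 1.63, edgeR, adjusted p = 6.2e-06), and the 0.35 at 2 h did not pass (edgeR, adjusted p = 0.41). Stard4 at 2 h was 2.22-fold higher at 1% CO2 than with NaOH (edgeR, adjusted p = 0.0024), with 95% limits of 0.59 and 1.71 on the log2 scale. At 4 h the difference was 0.39 (edgeR, adjusted p = 0.19), and without the first NaOH library, the highest of its group, it was 0.68 and passed (edgeR, adjusted p = 0.017).

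Rdh11 encodes a short-chain dehydrogenase that acts on retinal and is known as a gene that SREBPs regulate in the mouse. At both times every 1% CO2 library lay above every NaOH library for Rdh11. Control libraries had 94.7, 86.1, 98.0 and 103 normalized counts. At 1% CO2 they had 145, 143, 144 and 137 at 2 h, and 219, 207, 192 and 213 at 4 h. With NaOH they had 109, 106, 102 and 117 at 2 h, and 157, 139, 137 and 137 at 4 h. Libraries of a group lay close together, with an SD of 3.64 to 11.7. Rdh11 rose by 0.58 and 1.13 at 2 and 4 h of 1% CO2 (edgeR, SE 0.0994 and 0.0978, adjusted p = 2.4e-05 and 1.2e-11). With NaOH the rise was 0.58 at 4 h (edgeR, adjusted p = 7.1e-06), and the 0.19 at 2 h did not pass (edgeR, adjusted p = 0.14). The level with NaOH at 4 h, 142 ± 9.63 (SD, n = 4), was that of 1% CO2 at 2 h, 142 ± 3.64 (SD, n = 4). Between treatments the difference was 0.38 at 2 h and 0.54 at 4 h (edgeR, adjusted p = 0.0046 and 2.6e-05).

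**Figure D3:**
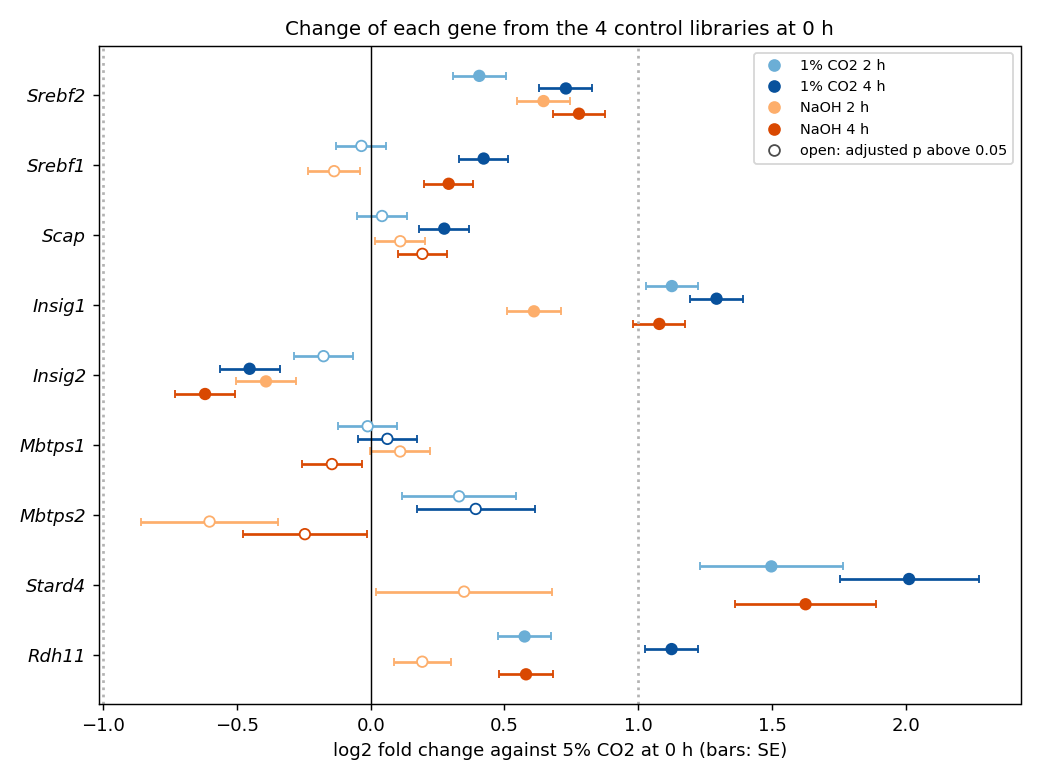
Log2 fold change of each gene against the 4 control libraries at 0 h (horizontal axis), with SE, for the 4 treated groups. Filled points passed an adjusted p of 0.05 in edgeR and dotted lines mark a log2FC of 1 in either direction. Stard4, Insig1 and Rdh11 at 4 h of 1% CO2 lie past that line, and Insig2 lies below 0 in all 4 groups, open at 2 h of 1% CO2.

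Read over the 9 genes, 4 rose at 2 h of 1% CO2 (Srebf2, Insig1, Stard4 and Rdh11) and none fell, where 16% of all genes tested rose and 12.4% fell. No further member had an unadjusted p under 0.05 there in the lower direction, and DESeq2 called 0 lower as well. At 4 h of 1% CO2, 6 rose and 1, Insig2, fell (20.3% and 18.9% of all genes). With NaOH, 2 rose and 1 fell at 2 h (23% and 20.4% of all genes), and 5 rose and 1 fell at 4 h (28.2% and 26.9%). The median log2FC of the 9 genes in these comparisons was 0.33, 0.42, 0.11 and 0.29, beside values close to 0 for all genes. With a log2FC of at least 1 also required, Insig1 and Stard4 passed at 2 h of 1% CO2, where 3.16% of all genes rose by that rule, and Insig1, Stard4 and Rdh11 at 4 h (4.06% of all genes). At 4 h of NaOH Insig1 and Stard4 passed (7.6% of all genes), and at 2 h of NaOH (6.68%) the largest change of the 9 was the 0.65 of Srebf2. Because both treatments share the control libraries, these counts are set side by side and were not tested against each other. The 9 genes were chosen with earlier results of these data known, so the counts beside the shares of all genes are a description only.

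From 2 to 4 h, 3 of the 9 rose at 1% CO2 (Srebf1, Srebf2 and Rdh11), where 7.74% of all genes rose and 7.55% fell, and 4 rose with NaOH (Srebf1, Insig1, Stard4 and Rdh11), where 16% rose and 16.5% fell. In edgeR and in DESeq2 0 of the 9 fell in either step, and at an unadjusted p under 0.05 there was 1 in each, Insig2 at 1% CO2 and Mbtps1 with NaOH. The Insig2 step of -0.28 passed without the fourth 1% CO2 library of 2 h (-0.37, edgeR, adjusted p = 0.026). Stard4 had the largest step, 1.28 with NaOH (edgeR, adjusted p = 0.00074), beside 0.52 at 1% CO2 (edgeR, adjusted p = 0.13), which passed without the third 1% CO2 library of 2 h (0.70, adjusted p = 0.041). A test of the difference between the steps called 0 of the 9 in edgeR and 0 in DESeq2, and 15.1% of all genes in edgeR in either direction. At an unadjusted p under 0.05 it gave 3, Insig1, Stard4 and Mbtps1.

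The direct comparison of the treatments uses no control library. At 2 h, 4 of the 9 genes were higher at 1% CO2 (Insig1, Mbtps2, Stard4 and Rdh11) and none lower, where 14.9% of all genes were higher and 17.1% lower. The Srebf2 value of -0.24 did not pass (edgeR, adjusted p = 0.062), was the 1 lower value with an unadjusted p under 0.05 and was not called by DESeq2, which called 0 lower. That value passed without the fourth 1% CO2 library (-0.30, edgeR, adjusted p = 0.032) and without the second NaOH library (-0.32, 0.012) or the fourth (-0.28, 0.045). At 4 h 2 were higher (Mbtps2 and Rdh11) in edgeR, where 16.3% of all genes were higher and 19.2% lower. In the lower direction there were 0 by the adjusted p, 0 at an unadjusted p under 0.05 and 0 in DESeq2. Insig1 at 4 h was 0.21 higher and did not pass (edgeR, SE 0.0947, adjusted p = 0.076), with 95% limits of 0.03 and 0.40, and passed without the fourth NaOH library of 4 h (0.28, adjusted p = 0.035).

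**Figure D4:**
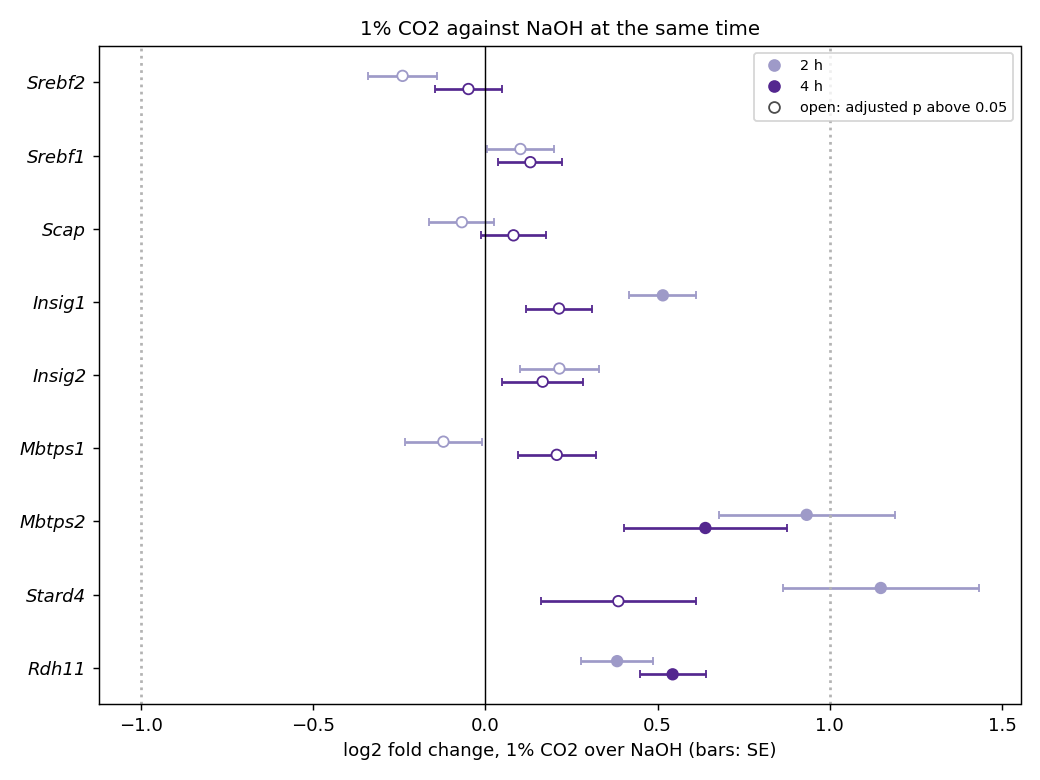
Log2 fold change of 1% CO2 over NaOH (horizontal axis), with SE, at 2 h and at 4 h for the 9 genes. Filled points passed an adjusted p of 0.05 in edgeR, and dotted lines mark a log2FC of 1. Rdh11 and Mbtps2 are filled at both times, Insig1 and Stard4 at 2 h.

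The genes whose products work with these 9 were counted in lists, to be read beside the shares of all genes given above. The lists too were chosen with earlier results of these data known. Medians of log2FC against 0 h are given for 1% CO2 at 2 and 4 h and then NaOH at 2 and 4 h, beside medians of all genes of -0.01, -0.01, -0.03 and -3.23e-05. In the same order, 16%, 20.3%, 23% and 28.2% of all genes rose, and 12.4%, 18.9%, 20.4% and 26.9% fell. Of 20 tested enzymes of cholesterol synthesis, the main targets of SREBP2, 18 rose at 2 h and 20 at 4 h of 1% CO2, and 6 rose at 2 h of NaOH, while at 4 h of NaOH 16 rose and 1, mevalonate kinase (Mvk), fell. Their medians were 0.88, 1.36, 0.05 and 0.51. The direct comparison gave 17 higher at 1% CO2 at 2 h and 18 at 4 h.

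Among 12 tested genes of the COPII coat and ER exit, 4 rose at 2 h and 3 at 4 h of 1% CO2, and 4 rose and 1 fell at 2 h of NaOH, with 7 that rose at 4 h (medians 0.19, 0.17, 0.15 and 0.275). Sec24a, a cargo adaptor of the coat, rose from 49.3 ± 10.0 (SD, n = 4) to 103 ± 7.42 normalized counts at 2 h of 1% CO2 (log2FC 1.05, edgeR, adjusted p = 6.5e-07) and stood at 55.8 ± 14.3 at 4 h, a fall of 0.88 (-0.88, edgeR, adjusted p = 0.00011). With NaOH Sec24a stood at 96.1 ± 9.28 and 68.3 ± 9.49 (SD, n = 4) normalized counts at 2 and 4 h (0.96 above 0 h at 2 h and a step of -0.51, edgeR, adjusted p = 3.7e-06 and 0.0098), and the treatments differed at 2 h by 0.089, which did not pass (edgeR, adjusted p = 0.67). Preb, which loads the coat's small GTPase, was 1.26 higher at 2 h of NaOH (edgeR, adjusted p = 8.6e-05) from only 10.6 ± 1.97 (SD, n = 4) normalized counts at 0 h. Among 14 partners of ER retention and turnover, 3 rose at 2 h and 6 at 4 h of 1% CO2, with 1 that fell at 4 h, and 3 and 7 rose and 1 and 3 fell with NaOH (medians 0.15, 0.24, 0.02 and 0.28). Rnf145, a ubiquitin ligase that acts on SCAP, fell by 0.68 at 2 h of NaOH and was 0.52 higher at 1% CO2 than with NaOH at that time (edgeR, adjusted p = 3.5e-06 and 0.00046), and was chosen after its values were seen. By 4 h of NaOH it had risen by 0.93 from 2 h and was 0.25 above 0 h (edgeR, adjusted p = 1.7e-08 and 0.029), and the difference between treatments was -0.056 (edgeR, adjusted p = 0.7).

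Of 11 tested nuclear partners and turnover factors of SREBPs, 2 rose at 2 h of 1% CO2 and 1 rose and 3 fell at 4 h, while with NaOH 4 rose and 4 fell at 2 h and 5 rose and 2 fell at 4 h (medians 0.215, -0.05, -0.25 and 0.285). Fbxw7, a ubiquitin ligase subunit that marks nuclear SREBP for degradation, rose by 1.30 and 1.11 with NaOH at 2 and 4 h (edgeR, adjusted p = 4.2e-10 and 6.4e-09), and by 0.41 at 2 h of 1% CO2 (edgeR, adjusted p = 0.024). In normalized counts Fbxw7 went from 44.9 ± 4.71 at 0 h to 111 ± 8.46 (SD, n = 4) at 2 h of NaOH and 60.5 ± 10.9 at 2 h of 1% CO2. Lpin1, lipin 1, a phosphatidate phosphatase that also restrains nuclear SREBP, moved in opposite directions at 2 h. It rose by 0.58 at 2 h of 1% CO2 (edgeR, adjusted p = 0.0034), and fell by 1.92 at 2 h of NaOH (edgeR, adjusted p = 3.7e-09), from 72.5 ± 13.2 to 19.2 ± 9.07 (SD, n = 4) normalized counts. From 2 to 4 h of NaOH Lpin1 rose by 1.81 (edgeR, adjusted p = 6.1e-08). At 4 h its log2FC against 0 h was -0.11 with NaOH, which did not pass, and 0.89 at 1% CO2 (edgeR, adjusted p = 0.58 and 1.1e-05). The level of Lpin1 at 1% CO2 exceeded that with NaOH 5.64-fold at 2 h and 2.01-fold at 4 h (edgeR, adjusted p = 5.1e-12 and 4.1e-06). Yy1 and Nfya, genes of DNA-binding factors in this list, differed between the treatments in the step from 2 to 4 h. Yy1 went from 184 ± 16.5 to 122 ± 6.74 normalized counts at 1% CO2 and from 134 ± 6.79 to 196 ± 27.0 (SD, n = 4) with NaOH, and these steps differed by -1.14 (edgeR interaction, adjusted p = 1.1e-06). For Nfya, a subunit of NF-Y, the steps differed by -1.12 (edgeR interaction, adjusted p = 0.0075), with a rise of 0.80 under NaOH (edgeR, adjusted p = 0.0042) and a value of -0.32 that did not pass at 1% CO2 (edgeR, adjusted p = 0.29).

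Of 9 tested genes of lipoprotein uptake, 3 rose and 1 fell at 2 h of 1% CO2, and 5 rose and 3 fell at 4 h. With NaOH 3 rose and 1 fell at 2 h, and 2 rose and 2 fell at 4 h (medians 0.05, 0.30, 0.05 and -0.17). Mylip, a ubiquitin ligase that degrades lipoprotein receptors and is switched on by LXR, fell by 1.25 at 2 h of 1% CO2 (edgeR, adjusted p = 4.1e-05), from 41.7 ± 4.52 to 17.4 ± 5.98 (SD, n = 4) normalized counts. At 2 h of NaOH it stood at 42.4 ± 10.7 (SD, n = 4), and the treatments differed by -1.21 (edgeR, adjusted p = 0.00017). Dab2, an adaptor for receptor endocytosis, rose by 0.57 at 2 h of 1% CO2 and fell by 0.71 with NaOH (edgeR, adjusted p = 0.0026 and 0.0014), and the treatments differed by 1.29 at 2 h and 1.13 at 4 h (edgeR, adjusted p = 2.9e-07 and 1.3e-06). Lrp8, the apolipoprotein E receptor 2, rose by 1.87 at 4 h of 1% CO2 and by 1.18 at 4 h of NaOH (edgeR, adjusted p = 6.9e-08 and 0.00017).

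Of 16 tested genes of sterol transfer other than Stard4, 4 rose and 2 fell at 2 h of 1% CO2 and 3 rose and 1 fell at 4 h. With NaOH 5 rose and 2 fell at 2 h, and 8 rose and 4 fell at 4 h (medians 0.09, 0.16, 0.175 and 0.08). Lima1, an actin-binding protein that in the mouse intestine also helps sterol uptake, had a peak at 2 h in both treatments, at 1526 ± 80.0 normalized counts for 1% CO2 and 2064 ± 288 for NaOH (SD, n = 4), against 444 ± 27.4 at 0 h (log2FC 1.78 and 2.22, edgeR, adjusted p = 1.4e-17 and 7e-21). Stard5, another soluble sterol carrier, fell by 0.80 at 2 h of 1% CO2 and by 1.37 at 2 h of NaOH (edgeR, adjusted p = 0.0092 and 0.00011). At 4 h its values of -0.30 and -0.51 did not pass (edgeR, adjusted p = 0.31 and 0.056), and from 2 to 4 h of NaOH it rose by 0.86 (edgeR, adjusted p = 0.028).

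Of 6 tested substrates of the same proteases, 1 rose and 1 fell at 2 h and 2 rose and 1 fell at 4 h of 1% CO2, and with NaOH 3 rose at 2 h and 4 at 4 h (medians 0.075, 0.03, 0.30 and 0.585). The one that fell was Creb3l1, a membrane-bound transcription factor cut by site-1 and site-2 protease. It had 243 ± 20.1 normalized counts at 0 h, 177 ± 13.1 and 127 ± 19.1 at 2 and 4 h of 1% CO2, and 450.0 ± 40.5 and 671 ± 41.9 at 2 and 4 h of NaOH (SD, n = 4). Creb3l1 at 4 h was 5.27-fold lower at 1% CO2 than with NaOH (log2FC -2.40, edgeR, adjusted p = 6.6e-20), and the steps from 2 to 4 h differed by -1.05 (edgeR interaction, adjusted p = 2.1e-06).

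Of the 3 tested relatives of Rdh11, Rdh13 rose by 0.68 and Rdh14 fell by 0.55 at 2 h of 1% CO2 (edgeR, adjusted p = 0.0016 and 0.0073). At 4 h of NaOH Rdh10 and Rdh13 rose by 1.33 and 1.28 and Rdh14 fell by 1.28 (edgeR, adjusted p = 8.9e-08, 1.5e-08 and 8.4e-08). At 4 h of 1% CO2 Rdh10 rose by 0.90 and Rdh13 by 0.64 (edgeR, adjusted p = 0.00026 and 0.0028). Between treatments Rdh13 was lower at 1% CO2 at 4 h (-0.64, edgeR, adjusted p = 0.0014), the opposite order to Rdh11, while Rdh14 was higher there by 0.83 at 2 h and 0.96 at 4 h (edgeR, adjusted p = 0.0013 and 0.00011), the same order as Rdh11.

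The 4 paralogs were last set beside the 7894 genes with a mean of at least 20 normalized counts, by Pearson's r of log2 CPM over the 20 libraries. These libraries share groups, so that r describes the group pattern and carries no p. The genes nearest to Insig1 were Tnfaip2 (r = 0.954), Fam20c (0.950), Timm10 (0.947), and the cholesterol synthesis genes Sqle (0.947) and Hmgcs1 (0.943). Sqle, squalene epoxidase, had 682 ± 25.3 normalized counts at 0 h and 1430.3 ± 74.6 and 932 ± 156 at 2 h of 1% CO2 and of NaOH (SD, n = 4), the order that Insig1 had. The genes nearest to Srebf2 were Stip1 and Cct7 (0.950 each), Eif3b (0.938), Cct3 (0.937) and Atad3a (0.932), which are chaperone, chaperonin, translation initiation and mitochondrial genes. Cct7 had 1222 ± 28.6 normalized counts at 0 h and 1557 ± 70.4 and 1704 ± 110.0 at 2 h of 1% CO2 and of NaOH (SD, n = 4). Among the genes near to Srebf1 were Peo1 (0.880), Adgrl2 (0.876), Rad9a (0.855) and Slc20a2 (0.852), and Insig2 was nearest to Ccdc34 (0.868), Gnb5 (0.860), Osbpl9 (0.853), Gprasp1 (0.853) and C2cd5 (0.852). Among the 9 genes, r was 0.725 between Srebf2 and Insig1, 0.511 between Srebf2 and Srebf1, -0.605 between Insig1 and Insig2, and -0.822 between Srebf2 and Insig2.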

How the data were processed

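The authors prepared 3′ bulk MARS-seq libraries, trimmed reads with cutadapt, mapped them to mm10 with STAR (version 2.4.2a according to the submitters' processing notes) and counted UMIs per extended RefSeq gene with HTSeq. The deposited table gives raw counts and, from DESeq2, a normalized signal. Dividing the deposited counts by a size factor for each library returned the deposited signal to within 5.82e-11, and the signal was not used further. Tags come from the 3′ end and do not scale with transcript length. Pairs of libraries from one group differed beyond sampling noise (chi-square over degrees of freedom, 2.08 to 10.9), and none was merged. The highest values, 10.1, 10.9 and 10.2, were those of the pairs with the third 1% CO2 library of 2 h.

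One quasi-likelihood model of edgeR 4.0.16 (R 4.3.3, robust estimates, TMM factors, no covariates) was fitted to the 20 libraries in 5 groups, for 9726 genes whose normalized counts averaged 5 or more, giving 8 comparisons and the difference between the steps from 2 to 4 h. The threshold was 0.05 for p-values adjusted after Benjamini-Hochberg, and a second count also asked for a log2FC of 1 or more. The coefficient of variation was 0.101. Paralog ratios used a pseudocount of 0.5 and two-sided exact permutation tests. The edgeR test of the 8 comparisons was also run on simulated counts. The difference between the steps from 2 to 4 h was not simulated. Alternatives were DESeq2 1.42.0, other scaling and filters, the compared groups alone, a replicate block, and leaving out each library. Positions and promoters are from RefSeq GRCm38.p6, the assembly of mm10, and 8 of the 9 genes were searched, all but Stard4. All 9 genes were described by rule, and of each list those past both thresholds if 5 or fewer, otherwise the 3 with the smallest adjusted p. Some genes that meet this rule are not reported here. Members and lists were chosen with earlier results of these data known.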

Additional observations from a re-analysis of the deposited data

Results flagged for a closer look

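Within groups of 4, 2 libraries stood apart from the others of their group by Dixon's 95% criterion, among 45 combinations of gene and group, where chance gives about 2.25. Insig1 had 313.5 normalized counts in the fourth control library, above the 264, 269 and 268 of the others. Rdh11 had 156.8 in the first NaOH library of 4 h, above the 139, 137 and 137 of the others. Leaving out either library changed neither gene's calls against 0 h. Without that control library the Insig1 difference between treatments at 4 h, which does not use it except through the shared spread and scaling, was 0.24 and passed (edgeR, adjusted p = 0.045).

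The response differed between 1% CO2 and NaOH, by edgeR's test of the difference with Benjamini-Hochberg adjustment, in 6 cases. At 2 h Insig1 was higher at 1% CO2 by 0.5154 on the log2 scale, Mbtps2 by 0.9329, Stard4 by 1.148 and Rdh11 by 0.3826. At 4 h Mbtps2 was higher by 0.6388, with overlapping libraries, and Rdh11 by 0.5438.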

How the results depend on the processing

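Of the 81 values of the 9 genes, 33 passed in edgeR, and none of these 33 changed sign under any alternative run. DESeq2, DESeq2 size factors in edgeR, no filter on low counts and a minimum mean of 20 changed no call. With the compared groups alone, Mbtps2 passed at 2 h of NaOH (-0.60) and Scap at 4 h of NaOH (0.19). With scaling by library totals alone, 5 genes in place of 3 passed at 2 h of NaOH (2 higher and 3 lower, with Srebf1 and Mbtps2 added as lower) and 4 in place of 2 between treatments at 4 h (all higher, with Insig1 and Mbtps1 added). Mbtps1 was added as lower at 4 h of NaOH (-0.34, edgeR, adjusted p = 0.011) and Insig2 as higher between treatments at 2 h (0.34, edgeR, adjusted p = 0.027). By this scaling 2 calls were lost (Srebf1 at 4 h of NaOH, which leaves 4 higher and 2 lower there, and Scap at 4 h of 1% CO2), and 8 values, none called, changed sign, while medians of all genes moved by up to -0.21. These were Scap at 2 h of 1% CO2 (-0.020) and of NaOH (-0.077), Mbtps1 at 4 h of 1% CO2 (-0.052) and 2 h of NaOH (-0.077), Scap (0.057) and Mbtps1 (0.0039) between treatments at 2 h, Srebf2 between treatments at 4 h (0.028) and the Srebf1 step difference (-0.021). The cause was not tested.

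Leaving out 1 library at a time gave 1 to 3 genes between treatments at 4 h. Of 1620 such values 21, of genes not called, changed sign. Against 0 h Srebf1 ranged from -0.069 to 0.022 and Mbtps1 from -0.077 to 0.079 at 2 h of 1% CO2, and Mbtps1 from -0.014 to 0.19 at 2 h of NaOH. For the steps from 2 to 4 h, Mbtps1 ranged from -0.0013 to 0.16 and Mbtps2 from -0.12 to 0.21 at 1% CO2, and Scap from -0.0029 to 0.19 with NaOH. Between treatments at 2 h Scap ranged from -0.15 to 0.036 and Mbtps1 from -0.20 to 0.0028. The step difference ranged from -0.026 to 0.093 for Srebf1 and from -0.14 to 0.031 for Insig2.

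Same-numbered libraries did not deviate together more than others (correlations -0.23 to 0.189, median -0.026, 3 of 40 over 0.1). For libraries of different numbers the median was 0.00686, with 13 of 120 over 0.1. Whether the numbers mark shared cultures or days is not given, and these correlations cannot settle it. With the replicate block 80 of 81 values kept their side, and Mbtps2 at 2 h of NaOH passed (-0.58, edgeR, adjusted p = 0.037). Stard4 and Mbtps2 had the fewest counts and the largest SE.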
